A study of Mus musculus with 9 samples.

Results

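Trio, Otulin, Dnah5, Fbxl7, Basp1, Myo10, Cpq and Mtdh are 8 protein-coding genes of the proximal part of mouse chromosome 15, and they were taken by name from the 15184 genes of the deposited expression table. These genes were chosen by measured values of the same libraries: Trio and several of its neighbours had stood out in the comparison with empty vector. Their levels and differences are therefore given as a description, without a test. The study raised hnRNP K, an RNA-binding protein, in mouse embryonic fibroblasts (MEFs) by the synergistic activation mediator (SAM) system, in which a guide RNA brings an inactive Cas9 and transcriptional activators to the promoter of a gene. RNA was sequenced from 3 libraries of cells with the empty vector (Empty), 3 labelled SAM1 and 3 labelled SAM2, the latter groups both having the genotype Hnrnpk_SAM.

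According to the methods, the MEFs were wild type and came from mid-gestation embryos. They received the lentiviral vectors lentiMPHv2 and lentiSAMv2 and were selected with blasticidin and hygromycin, the control being described as carrying a non-targeting guide. Integration sites, and the cells that survived selection in each group, were not examined. The sequence printed for the non-targeting guide is the same as that of a guide against Hnrnpk, so what the control carried is not settled. A pair of guides against Hnrnpk was used independently, and the labels do not say which guide SAM1 or SAM2 carried, nor whether the libraries of a group came from separate cultures or embryos. If they did not, the p-values below measure only technical spread. Hnrnpk itself was 25773 ± 621 normalized counts (SD, n = 3) in Empty, 23922 in SAM1 and 26563 in SAM2. It was slightly lower in the libraries labelled SAM1 (log2 difference -0.11, limma adjusted p = 0.00252) and did not pass the test in those labelled SAM2 (0.04, adjusted p = 0.159), so SAM1 and SAM2 serve below as names of the libraries and not as activation measured in them. By other assays, qRT-PCR and Western blot, the study reported more Hnrnpk RNA and protein in its Hnrnpk_SAM MEFs. The table held 41759636 to 49026626 reads per library. All 10 fibroblast markers were listed, with a summed level of 863000 to 1202000 normalized counts, whereas Epcam, Krt5, Krt14 and Krt18 (epithelial) and Ptprc and Adgre1 (immune) were not in the table. Other markers of these lists were present, as Cdh1, Krt8, Cd68, Csf1r and Lyz2.

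The genes encode proteins of different kinds. Trio is a large guanine nucleotide exchange factor that loads Rac1, RhoG and RhoA with GTP and so acts on the actin cytoskeleton, cell migration and axon guidance. Otulin removes linear (Met1-linked) ubiquitin chains, which are made by the LUBAC ligase on the way from the TNF receptor to NF-κB. Dnah5 is a heavy chain of the outer dynein arm, the motor of beating cilia. Fbxl7 is an F-box protein that presents substrates to an SCF ubiquitin ligase, Basp1 is a myristoylated protein of the inner plasma membrane that also acts as a transcriptional corepressor, and Myo10 is the motor of filopodium tips. Cpq is a secreted carboxypeptidase, and Mtdh (astrocyte elevated gene-1, metadherin) is a membrane and nuclear protein that binds Snd1.

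In the GRCm39 build, the genes lie in the order Basp1, Myo10, Fbxl7, Otulin, Trio, Dnah5, Cpq and Mtdh. Basp1 (ENSMUSG00000045763) spans chr15:25363350-25414981 and Myo10 (ENSMUSG00000022272) spans chr15:25622611-25813759. Fbxl7 (ENSMUSG00000043556) occupies chr15:26540545-26895671. Otulin (ENSMUSG00000046034) at chr15:27542721-27631297, Trio (ENSMUSG00000022263) at chr15:27730737-28026029 and Dnah5 (ENSMUSG00000022262) at chr15:28203898-28472198 follow each other closely, with Otulinl between the first pair of these. Cpq (ENSMUSG00000039007) at chr15:33083200-33595276 and Mtdh (ENSMUSG00000022255) at chr15:34082368-34146026 start 5.35 and 6.35 Mb beyond the start of Trio. Basp1, Fbxl7, Otulin and Trio are transcribed from the minus strand and the others from the plus strand. The exons of Otulin, Fbxl7 and Dnah5 share no base with those of another gene, whereas 2.5% of the exonic bases of Trio, 6.2% of Basp1, 2.2% of Myo10, 7.3% of Cpq and 2.7% of Mtdh also belong to a gene on the opposite strand. These shares come from GENCODE vM39, a later release than the one the authors counted with, so they need not hold for the deposited counts. Whether the counting used strand was not stated either, so reads from such shared bases could not be assigned.

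The start sites of the 4 genes that differed most between Empty and the SAM sets are shown by the 150 bases upstream of the annotated canonical start, read from GRCm39, 5′ to 3′ on the strand of the gene, to let their promoters be compared. Capitals mark GGGCGG, the GC box, found on either strand. The sequences are those of chr15:28025935-28026084 (minus strand, Trio), chr15:27630811-27630960 (minus strand, Otulin), chr15:28203748-28203897 (plus strand, Dnah5) and chr15:26895672-26895821 (minus strand, Fbxl7).
Trio: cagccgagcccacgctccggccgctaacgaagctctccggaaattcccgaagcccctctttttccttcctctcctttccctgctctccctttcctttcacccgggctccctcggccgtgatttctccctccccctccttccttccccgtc
Otulin: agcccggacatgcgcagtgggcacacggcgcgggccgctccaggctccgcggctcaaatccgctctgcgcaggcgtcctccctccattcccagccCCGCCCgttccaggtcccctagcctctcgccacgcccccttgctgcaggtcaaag
Dnah5: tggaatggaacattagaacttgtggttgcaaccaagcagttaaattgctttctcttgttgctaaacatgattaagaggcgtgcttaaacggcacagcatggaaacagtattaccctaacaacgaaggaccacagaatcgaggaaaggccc
Fbxl7: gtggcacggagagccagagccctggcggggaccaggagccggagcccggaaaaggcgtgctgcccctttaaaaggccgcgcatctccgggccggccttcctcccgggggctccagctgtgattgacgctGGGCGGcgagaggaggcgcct

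These promoters were not of one kind. Those of Otulin and Fbxl7 held 15 and 14 CpG dinucleotides and 71.3% G and C each, that of Trio 11 CpG and 62.7%, and that of Dnah5 only 4 CpG and 43.3%. Over 13007 promoters of listed coding genes the median was 9 CpG in the same length, the 10th percentile being 2 and the 90th percentile 18. A GC box was found once each upstream of Otulin and Fbxl7 and in 44.4% of all these promoters, while neither CCAAT (27.9% of promoters) nor TATAAA (3.91%) was found in any of the 4 windows on either strand.

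Trio had one of the highest counts in the empty vector cells. Its values were 258601, 205945 and 228085 normalized counts in the 3 Empty libraries, 15238, 13159 and 15768 in SAM1, and 18532, 18183 and 19030 in SAM2. All Empty libraries were far above all SAM libraries, and the SAM2 libraries were above the SAM1 libraries. The mean was 230877 ± 26440 (SD, n = 3) in Empty against 14722 ± 1379 in SAM1 and 18582 ± 426 in SAM2, 15.7- and 12.4-fold lower. On the scale of log2(normalized count + 1), which is used for all differences below, SAM1 minus Empty was -3.97 ± 0.07 (SE) and SAM2 minus Empty -3.63. Trio ranked between 2 and 5 of the 15184 genes by normalized count in the Empty libraries and took 0.423% to 0.527% of all counts there, but ranked 423 to 548 in SAM1 and 331 to 351 in SAM2. In bulk RNA, fewer cells with a transcript and less transcript per cell cannot be told apart.

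Otulin, separated from Trio by Otulinl, showed a difference of similar size. Its values were 49495, 53962 and 51258 in Empty, 2410, 2451 and 2315 in SAM1, and 3249, 3196 and 3092 in SAM2. The groups did not overlap. The mean of 51572 ± 2250 (SD, n = 3) in Empty was 21.6-fold that of SAM1 and 16.2-fold that of SAM2, with log2 differences of -4.43 and -4.02 (SE 0.04). Otulin ranked 81 to 87 among the genes of the Empty libraries and 3684 to 4732 among those of the SAM libraries.

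Dnah5 was present at a low level in Empty and close to the lower end of the table in the SAM sets. It had 661, 586 and 625 normalized counts in Empty, 11.4, 8.89 and 10.7 in SAM1, and 19.8, 11.1 and 31.5 in SAM2. Every Empty library was above every SAM library, whereas the SAM1 and SAM2 libraries overlapped. Since only 9 to 12 reads per SAM1 library and 12 to 34 per SAM2 library were counted, the ratios of 60.4 and 29.97 between the means and the log2 differences of -5.79 and -4.95 (SE 0.27) have the widest error of the 8 genes. Even so, the difference of Dnah5 was the lowest of all 15184 genes in SAM1 and the next to lowest in SAM2.

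Fbxl7, 1.19 Mb before Trio, was higher in both SAM sets. Its values were 83.9, 70.4 and 81.8 in Empty, 447, 401 and 479 in SAM1, and 526, 506 and 513 in SAM2. All libraries of both SAM sets were above those of Empty, and the SAM2 libraries were above the SAM1 libraries. The means were 5.62-fold (SAM1) and 6.55-fold (SAM2) that of Empty, or log2 differences of 2.48 and 2.70 (SE 0.09).

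**Figure D1:**
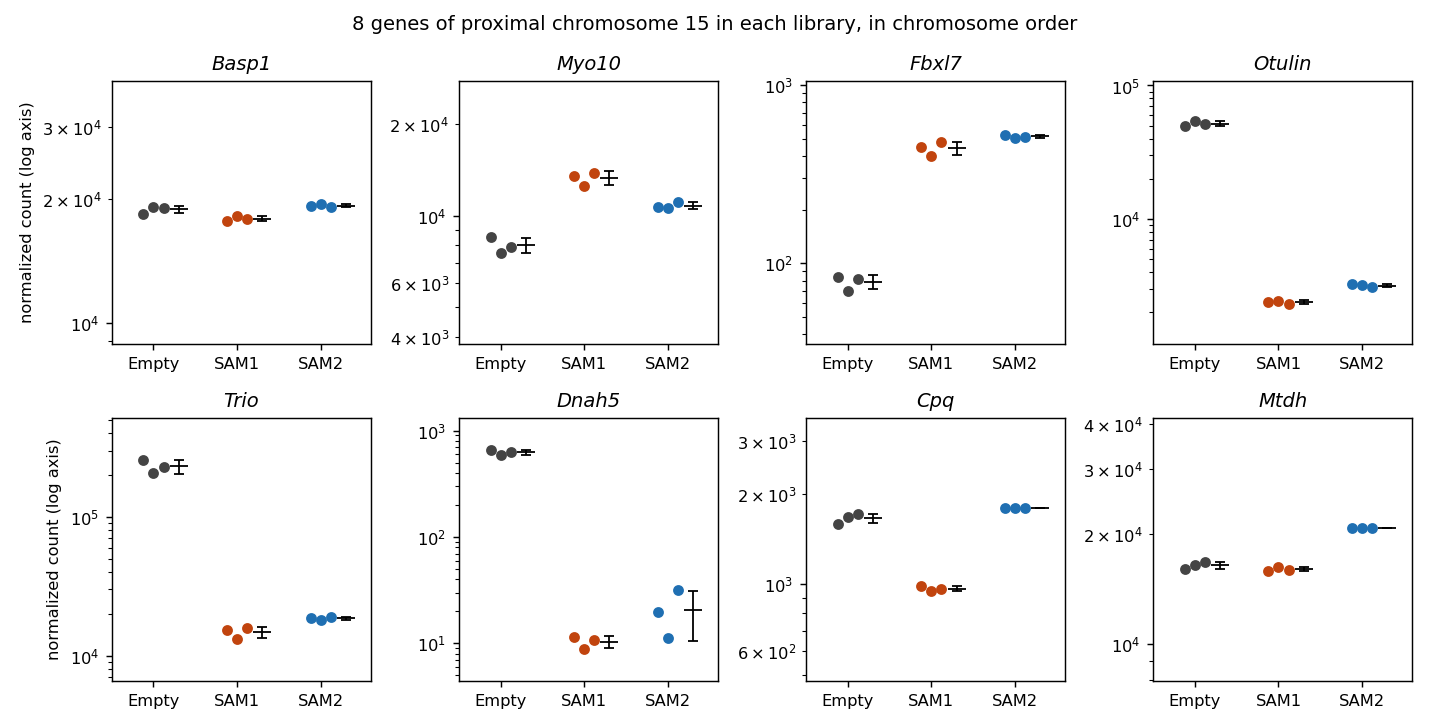
Normalized count (log axis, each panel on its own range) of the 8 genes in the 3 Empty, 3 SAM1 and 3 SAM2 libraries, with the mean and SD to the right of the points. Otulin, Trio and Dnah5 are more than 10-fold lower in both SAM sets, Fbxl7 is more than 5-fold higher, and Basp1 and Mtdh are within 0.34 (log2) of their Empty level.

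The outer genes of the set differed much less. Myo10 had 8507, 7563 and 7914 normalized counts in Empty, 13518, 12538 and 13849 in SAM1, and 10642, 10600 and 11106 in SAM2. The groups did not overlap, SAM1 being the highest and SAM2 between SAM1 and Empty, with log2 differences from Empty of 0.73 and 0.43 (SE 0.05). Cpq had 1596, 1678 and 1713 in Empty, 989, 953 and 965 in SAM1, and 1796, 1799 and 1798 in SAM2. It was thus below Empty in all SAM1 libraries (-0.78) and above Empty in all SAM2 libraries (0.11, SE 0.04).

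Basp1 and Mtdh, which bound the group on either side, were within 0.34 of their Empty level on the log2 scale. Basp1 had 18419, 19158 and 19089 in Empty, 17716, 18207 and 17915 in SAM1, and 19263, 19438 and 19118 in SAM2. SAM1 was just below Empty (-0.07, SE 0.03), with the sign turned under quantile normalization (0.10), and SAM2 overlapped Empty (0.03). Mtdh had 16028, 16425 and 16745 in Empty, 15860, 16273 and 15926 in SAM1, and 20747, 20733 and 20762 in SAM2. SAM1 overlapped Empty (-0.03, or 0.13 under quantile normalization), while SAM2 was above it in all libraries (0.34, SE 0.03).

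Counted over the 8 genes, SAM1 was entirely above Empty for 2, entirely below for 5 and overlapping for 1. By the same measure 37.3% of all genes were above and 37.1% below, and 37.3% were higher and 36.9% lower at a limma adjusted p below 0.05. SAM2 was above Empty for 4, below for 3 and overlapping for 1, against 36.7% of all genes above and 36.8% below, and 35.2% higher and 35.3% lower by limma. SAM2 was above SAM1 for 6 genes, below for 1 (Myo10) and overlapping for 1 (Dnah5), against 34.8% above and 33.4% below, and 31.1% higher and 29.2% lower by limma. With so many genes differing between these libraries, and with members chosen by these very comparisons, the counts say nothing about the genes as a group. What varied among them was the size of the difference. Both SAM comparisons share the Empty libraries, so that a like difference in SAM1 and SAM2 is not independent. The comparison of SAM2 with SAM1 does not use Empty. There the log2 difference was 0.34 for Trio, 0.41 for Otulin, 0.22 for Fbxl7, 0.10 for Basp1, -0.30 for Myo10, 0.37 for Mtdh and 0.84 for Dnah5. For Cpq it was 0.89, larger than either of its differences from Empty.

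Per kb of exon, which allows levels to be compared between genes, Trio (9829 normalized counts per kb) and Basp1 (8721) were the highest of the 8 in Empty, followed by Otulin (4005), Mtdh (1020), Myo10 (790), Cpq (186), Dnah5 (39.9) and Fbxl7 (12.05). In SAM1 the order was Basp1 (8285), Myo10 (1314), Mtdh (997), Trio (627), Otulin (186), Cpq (108), Fbxl7 (67.7) and Dnah5 (0.661). In SAM2 Basp1 (8898) was followed by Mtdh (1291), Myo10 (1065), Trio (791), Otulin (247), Cpq (201.04), Fbxl7 (78.9) and Dnah5 (1.33). Trio and Basp1 were neighbours in the Empty order, and their per-kb values differed by about the SD of Trio. The exon length is that of all annotated exons of a gene, not of the transcripts present.

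The question of how far along the chromosome such differences reached was addressed with the 61 other listed genes that start between 20 and 40 Mb of chromosome 15 (46 coding), which were tested with all genes. Of these, 27 were higher and 19 lower in SAM1 than in Empty (44.3% and 31.1%), and 31 were higher and 17 lower in SAM2 (50.8% and 27.9%). Their median log2 difference was 0.20 in SAM1 and 0.18 in SAM2, against 0.01 and 0.00 over all genes. Over this whole window the share of lower genes was no greater than the background. It was greater for the 32 genes that start between 25 and 35 Mb, of which 8 were higher and 16 lower in SAM1 (50% lower) and 10 higher and 15 lower in SAM2 (46.9%). The region was chosen because Trio and several neighbours had stood out in these comparisons, so this share is a description. Called in either direction were 75% of the 32 in SAM1 and 78.1% in SAM2, against 74.3% and 70.5% of all genes. On the rest of the chromosome (527 genes), 21.3% and 9.49% were lower, and the medians were 0.19 and 0.32. Between SAM2 and SAM1, 26 of the 61 genes were higher and 12 lower (42.6% and 19.7%), against 31.1% and 29.2% of all genes. On the rest of the chromosome these shares were 50.7% and 16.3%. Pooling the 6 SAM libraries against Empty gave 23 of the 61 higher and 16 lower (37.7% and 26.2%), against 26.8% and 27.0% of all genes.

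Large differences downward were more frequent among them. By a limit of 1 on the log2 scale in both SAM sets, chosen after the values were seen and given as a description, 12 of the 61 genes (19.7%) were lower, compared with 2.55% of all listed genes and 5 of 527 (0.949%) on the rest of chromosome 15. These were Retreg1, Ank, Otulinl, Gm20555, Ctnnd2, Dap, Ankrd33b, Ropn1l, Sdc2, Kcns2, Stk3 and Osr2. In the upward direction, 5 genes (8.2%) passed the limit, namely Cmbl, Spag1, Ncald, Gm45924 and Rims2. This compares with 6.61% of all genes and 53 of 527 (10.1%) on the rest of chromosome 15. Of the genes named, Kcns2 and Gm20555 exceeded 10 normalized counts only in Empty, and Gm45924 and Rims2 only in SAM1, so they entered the table through the group in which they were high. Gm20555 also lies inside Trio, on the same strand. Without all genes that exceeded 10 in 1 group only, 10 of 57 neighbours (17.5%) were lower and 3 (5.26%) higher by this limit, against 2.31% and 6.36% of 14868 genes. Of the 13 genes that start between 25 and 30 Mb, among them 6 of the 8 described above, the median difference was -1.71 in SAM1 and -1.28 in SAM2, a value that rests in part on the chosen genes. The 27 genes between 30 and 35 Mb had medians of -0.01 and 0.11, and the 28 between 35 and 40 Mb 0.31 and 0.55.

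**Figure D2:**
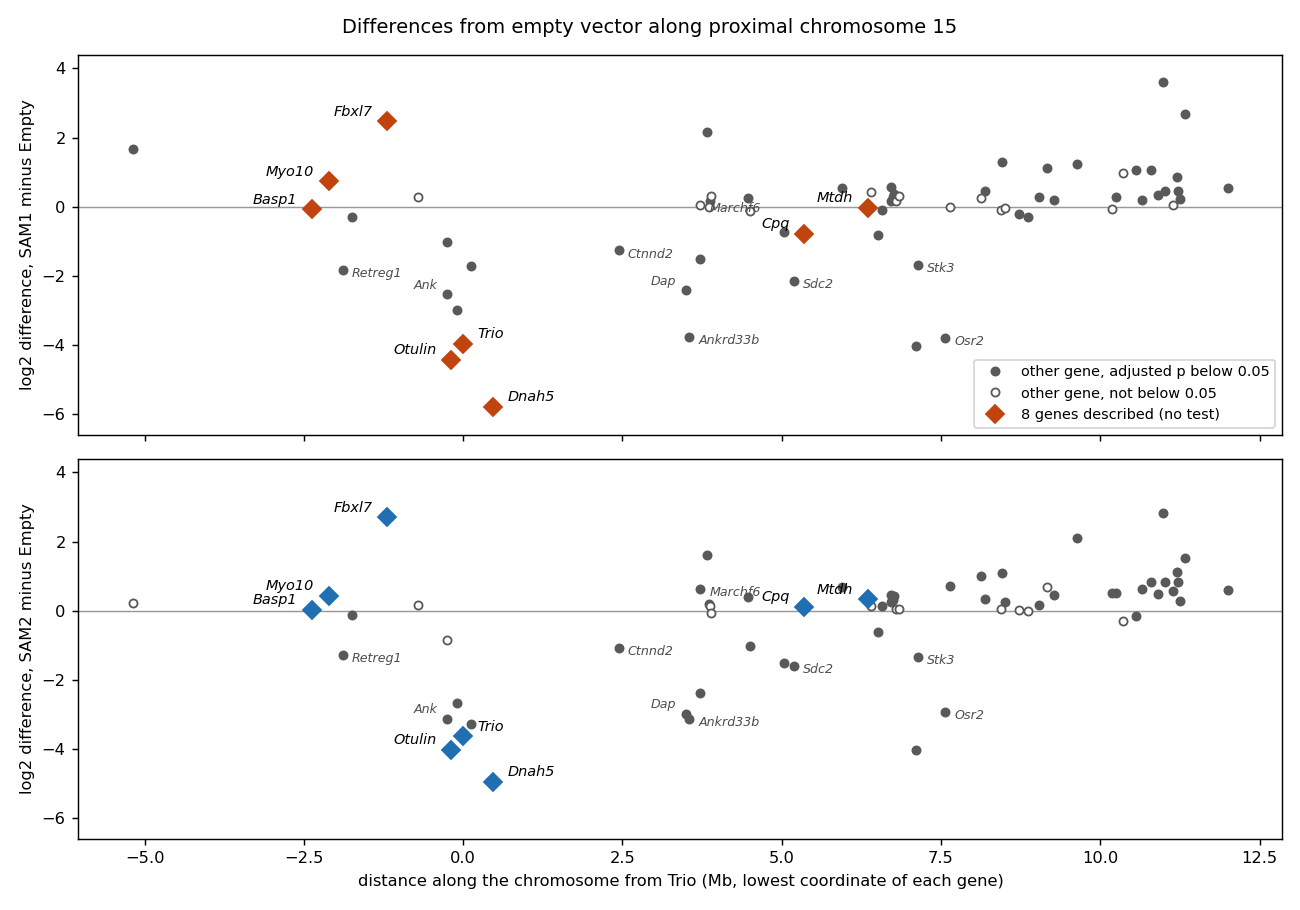
Log2 difference from Empty of the 8 genes (diamonds) and the 61 other listed genes (circles, filled where the limma adjusted p is below 0.05), plotted against distance from Trio in Mb, for SAM1 (top) and SAM2 (bottom). Low values gather around Trio and recur near Dap, Sdc2 and Osr2, with genes near 0 between them.

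The coding genes next to Trio were all listed. The 5 from Ank to Dnah5 (Ank, Otulin, Otulinl, Trio and Dnah5) were lower in both SAM sets. Otulin, Trio and Dnah5 belong to the genes chosen by these values, so only Ank and Otulinl add to that description. Ank, a membrane protein that exports pyrophosphate and so limits mineralization, had 85710, 81980 and 83435 normalized counts in Empty, 14849, 13997 and 14797 in SAM1, and 9377, 9695 and 9623 in SAM2. It ranked 39 to 46 in the Empty libraries and fell in SAM1 (log2 difference -2.52, limma adjusted p = 1.5e-15) and in SAM2 (-3.13, 1.87e-16). Unlike Trio and Otulin, Ank was lower in SAM2 than in SAM1 (-0.60, adjusted p = 2.79e-09). The span of Ank overlaps that of Otulin on the opposite strand, but no exonic base is shared.

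Otulinl, a catalytically inactive relative of Otulin at the endoplasmic reticulum, had 138, 140 and 119 in Empty, 11.4, 15.8 and 21.5 in SAM1, and 21.8, 21.3 and 16.7 in SAM2. The Empty libraries were 8.16-fold above SAM1 on average (log2 difference -2.99, limma adjusted p = 2.83e-08) and 6.64-fold above SAM2 (-2.68, 1.12e-07), and SAM1 and SAM2 overlapped (0.31, adjusted p = 0.22). Ctnnd2, which encodes delta-catenin and is the next listed coding gene beyond Dnah5, fell in both sets (-1.26 and -1.08, adjusted p = 4.15e-10 and 2.68e-09). On the other side, Zfp622, a ribosome maturation factor that lies between Retreg1 and Fbxl7, moved little (-0.29 and -0.13, adjusted p = 6.73e-06 and 0.00452), whereas Retreg1, a receptor for autophagy of the endoplasmic reticulum, fell more (-1.82 and -1.28, 3.42e-14 and 1.57e-12). Fbxl7, at 2.48 and 2.70 above Empty, thus lay between genes that were lower.

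Further along, lower genes alternated with genes near their Empty level. Dap, a small protein that restrains autophagy, was one of the genes with a high count in Empty. It had 140314, 143746 and 142058 in Empty, 26578, 27015 and 25988 in SAM1, and 18189, 18329 and 17549 in SAM2. It ranked 11 to 13 in Empty, fell in SAM1 and SAM2 (log2 differences -2.42 and -2.98, limma adjusted p = 9.83e-16 and 1.08e-16) and, like Ank, was lower in SAM2 than in SAM1 (-0.56, 2.2e-09). Its neighbour Ankrd33b fell as well (-3.77 and -3.14, 1.17e-13 and 1.12e-12). Close by, Marchf6, an E3 ligase of the endoplasmic reticulum, did not pass the test in SAM1 (0.04, adjusted p = 0.483) and rose in SAM2 (0.63, 3.35e-07). Without 1 library, the second of SAM1, the difference of Marchf6 in SAM1 became 0.12 with an adjusted p of 0.0173. Cct5, a chaperonin subunit named here after its values were seen, was at -0.01 in SAM1 (adjusted p = 0.884) and 0.18 in SAM2 (0.000334).

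The genes that flank Cpq and Mtdh differed from them too. Sdc2, the heparan sulfate proteoglycan syndecan-2, which lies just before Cpq, had 38101, 39196 and 39507 in Empty, 8674, 8779 and 8859 in SAM1, and 12669, 12834 and 12890 in SAM2. It fell in both sets (-2.15 and -1.60, limma adjusted p = 1.41e-15 and 2.27e-14) where Cpq was 0.78 below and 0.11 above Empty. Tspyl5, between Cpq and Mtdh, had means of 47.8, 69.1 and 75.8 and rose by 0.53 and 0.68 (adjusted p = 0.011 and 0.00266), the call in SAM1 being lost without its first library (0.41, adjusted p 0.0571) and under quantile normalization (0.11, adjusted p = 0.568). Laptm4b, a lysosomal membrane protein that follows Mtdh, fell less (-0.83 and -0.62, 1.2e-10 and 3.25e-09). Beyond it, Stk3, a Hippo pathway kinase, fell (-1.69 and -1.33, 1.72e-14 and 2.77e-13), and Osr2, a zinc finger factor of limb and palate, fell (-3.79 and -2.92, 2.02e-09 and 3.81e-08), while Vps13b between Osr2 and the distal genes was at -0.02 in SAM1 (adjusted p = 0.856) and rose by 0.72 in SAM2 (1.56e-05). Kcns2, a potassium channel subunit with a mean of 15.4 in Empty, had no read in any of the 6 SAM libraries, which with a floor of 3 reads per library puts it at least 5.2-fold lower in SAM1 and at least 5.19-fold lower in SAM2.

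**Figure D3:**
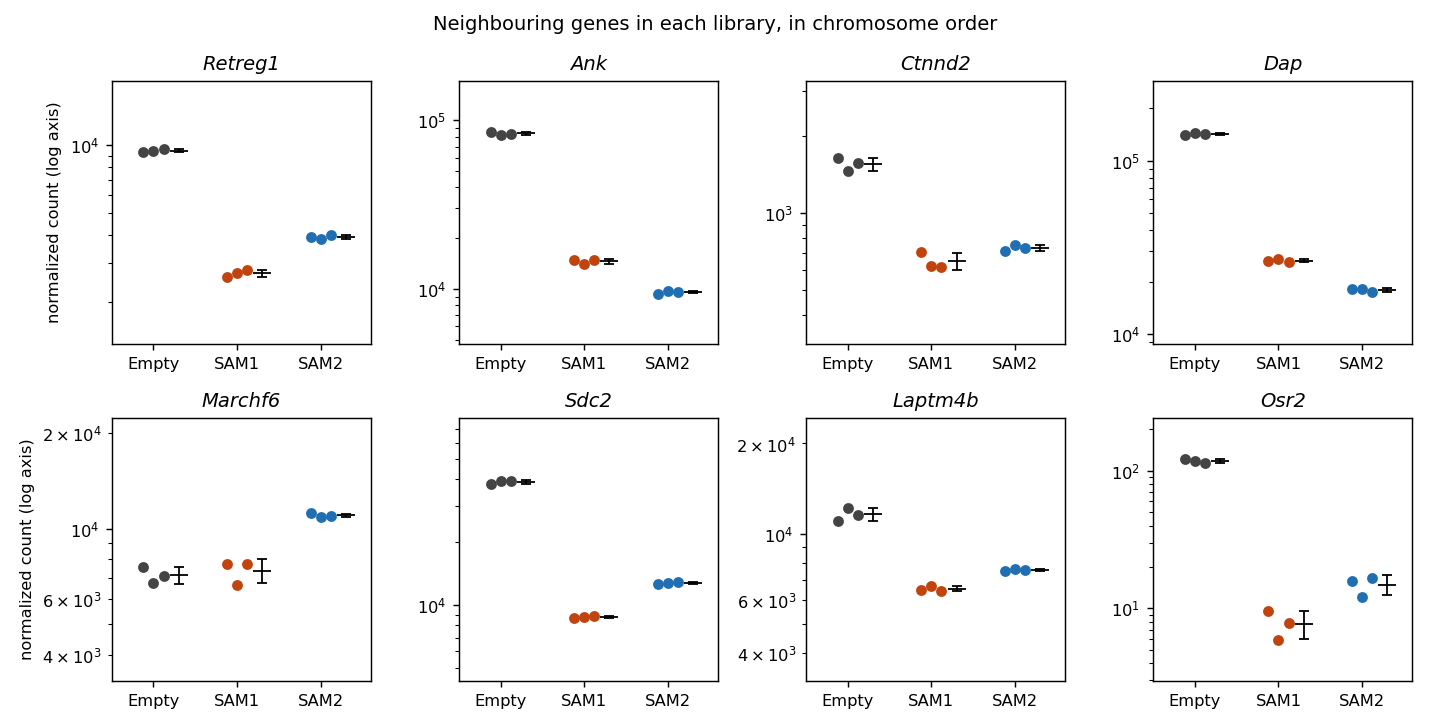
Normalized count (log axis, each panel on its own range) of 8 neighbouring genes in the 9 libraries, with mean and SD. Ank and Dap are lowest in SAM2, Retreg1, Sdc2, Laptm4b and Osr2 are lowest in SAM1, and Marchf6 is highest in SAM2.

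Per kb of exon, genes with a high Empty level were found both among those that were lower in the SAM sets and among those that were not. Cct5 and Basp1 lay in the range of Otulin and Trio and differed from Empty by at most 0.18 on the log2 scale, while Dnah5, Otulinl, Osr2 and Kcns2 had low Empty levels and were lower still in the SAM sets.

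**Figure D4:**
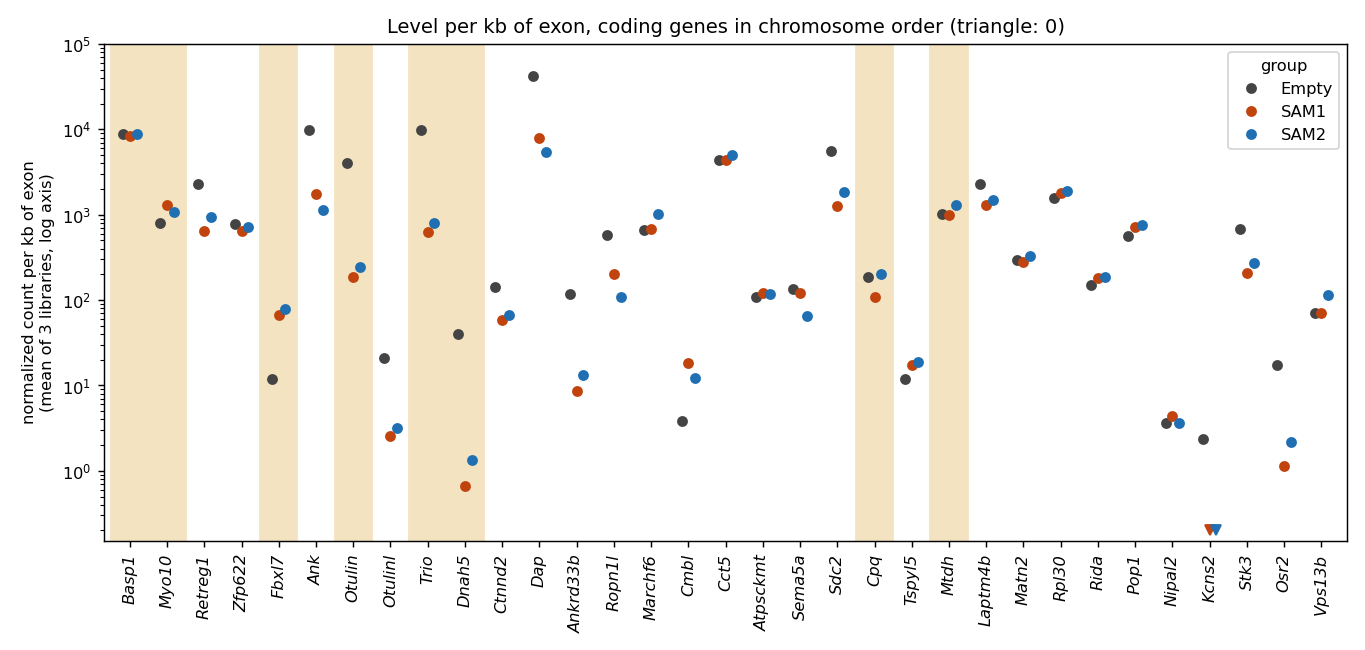
Mean normalized count per kb of exon (log axis) in Empty, SAM1 and SAM2 for the listed coding genes from Basp1 to Vps13b in chromosome order, with the 8 genes shaded and a triangle for a mean of 0. Genes that are lower in the SAM sets occur at high (Trio, Ank, Dap) and at low (Dnah5, Osr2) Empty levels.

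Genes elsewhere in the genome had profiles close to those of Trio and Otulin. Likeness was measured by the root mean square difference between 2 genes of their log2 values relative to the Empty mean over the 9 libraries, 0 being identical, as a description. Nearest to Trio were Clec2e on chromosome 6 (0.211), Kcns2 (0.242) and Igfbp3 on chromosome 11 (0.286). With no read of Kcns2 in any SAM library, its differences, and so its likeness to Trio, are set by the pseudocount. Nearest to Otulin were Wwtr1 (0.0964), Rnf13 (0.136) and Pfn2 (0.251), which lie together on chromosome 3 between 57363067 and 57755519. Wwtr1, a Hippo pathway coactivator, had a mean of 211916 in Empty, 10364 in SAM1 and 13996 in SAM2 and ranked 5 to 6 by normalized count in Empty, next to the ranks of Trio. Nearest to Dnah5 were Commd2 (0.681), again from this stretch of chromosome 3, Serpina3n on chromosome 12 and Pfn2. For the others the nearest were Notch1, Cacna1c and Ifi27l2b for Fbxl7, Ssr2, Vps72 and Hnrnpk for Basp1, Gse1, Cspg4 and Gapdh for Myo10, Inhbb, Ltbp4 and Tbpl1 for Cpq, and Itm2b, Uba3 and Ankrd10 for Mtdh.

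The partners of these proteins were examined next, against the background of genes called given above. Kalrn encodes kalirin, the paralog of Trio. It had 56.3, 70.4 and 35.05 normalized counts in Empty, 1674, 1504 and 1733 in SAM1, and 594, 547 and 661 in SAM2. The groups did not overlap, and Kalrn rose 30.4-fold in SAM1 (log2 difference 4.95, limma adjusted p = 3.21e-11) and 11.2-fold in SAM2 (3.51, 1.45e-09), with SAM2 below SAM1 (-1.45, 1.51e-05). The GTPases that Trio loads moved less and downward: Rac1 by -0.31 and -0.43 (adjusted p = 4.52e-07 and 2.57e-08), Rhog by -0.36 and -0.34 (6.67e-06 and 1.56e-05) and Rhoa by -0.53 and -0.66 (9.18e-10 and 1.8e-10). Of other exchange factors, Vav2 rose by 0.83 and 0.37 (2e-09 and 7.4e-06), Tiam1 rose by 0.53 in SAM1 (9.32e-06) and was at 0.11 in SAM2 (0.161), and Dock1 was at -0.07 and 0.08 (0.221 and 0.199).

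Of 14 genes around Otulin and linear ubiquitin, all listed, 5 were higher and 6 lower in SAM1, 6 higher and 6 lower in SAM2, and 6 higher and 2 lower in SAM2 than in SAM1. The medians were -0.02 in both comparisons with Empty. The 3 subunits of LUBAC, which builds the chains that Otulin removes, differed little: Rnf31, the catalytic subunit, rose by 0.27 and 0.29 (limma adjusted p = 0.000392 and 0.000258), Rbck1 fell (-0.08 and -0.09, 0.0431 and 0.022), and Sharpin was at 0.05 in SAM1 (0.245) and rose by 0.39 in SAM2 (1.11e-06). Cyld, another deubiquitinase of linear chains, was at -0.04 in SAM1 (0.245) and rose by 0.27 in SAM2 (5.8e-06). Tnfaip3 (A20) and Nfkbia, which restrain NF-κB and are also its targets, both fell, the former by more (-1.14 and -0.85, 3.67e-12 and 9.89e-11) than the latter (-0.59 and -0.43, 4.8e-08 and 1.23e-06). Otulinl, described above, had the largest difference of the list.

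For Dnah5, 6 of 10 genes of the outer dynein arms and their assembly, with Foxj1 counted among them, were listed, and Dnah9, Dnah11, Dnai1 and Dnaaf1 were not. None was higher and 5 were lower in SAM1, none was higher and 3 were lower in SAM2, with medians of -0.32 and -0.36. Over all genes, 36.9% were lower in SAM1 and 35.3% in SAM2. Foxj1, the transcription factor of motile cilia, had 84.9, 72.5 and 66.6 in Empty, 25.6, 38.5 and 28.3 in SAM1, and 41.5, 41.7 and 44.5 in SAM2, and fell (log2 differences -1.26 and -0.79, limma adjusted p = 1.49e-05 and 0.000943). Dnai2, an intermediate chain, fell as well (-0.97 and -1.13, 0.00012 and 3.43e-05). The multiciliated cell markers Tekt1 and Dnai1 were not in the table, and Foxj1 was the only marker of that list present.

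Of 6 genes around Fbxl7 and the SCF ligase, 4 were higher and none lower in each SAM set. Aurka and Birc5, mitotic proteins reported as Fbxl7 substrates, rose by 1.49 and 1.29 (limma adjusted p = 8.39e-12 and 5.18e-11) and by 1.02 and 0.65 (1.86e-09 and 2.11e-07), while the SCF subunits Skp1 and Cul1 rose by at most 0.36. Of the 11 filopodial genes around Myo10, 4 were higher and 7 lower in SAM1 and 3 higher and 7 lower in SAM2. The formin Diaph3 rose by 1.46 and 1.36 (5.91e-13 and 2.08e-12), and the actin regulator Enah fell (-1.16 and -0.61, 6.05e-12 and 4.58e-09), opposite to Myo10.

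Among the relatives of Basp1, 3 of 5 were listed under the names used (Wt1 and Phb1 were not), 2 being lower in SAM1 and 3 in SAM2. Gap43, a growth cone protein, fell in SAM1 (-0.35, limma adjusted p = 1.19e-05) and further in SAM2 (-2.05, 5.25e-13). Of the relatives of Cpq, 3 of 4 were listed, with 2 higher and 1 lower in each SAM set, among them Qpct, which rose by 1.63 and 0.51 (3.22e-12 and 4.13e-07). Snd1, the partner of Mtdh, was at 0.02 in SAM1 (0.63) and rose by 0.19 in SAM2 (6.04e-05), the sets in which Mtdh itself was at -0.03 and 0.34.

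**Figure D5:**
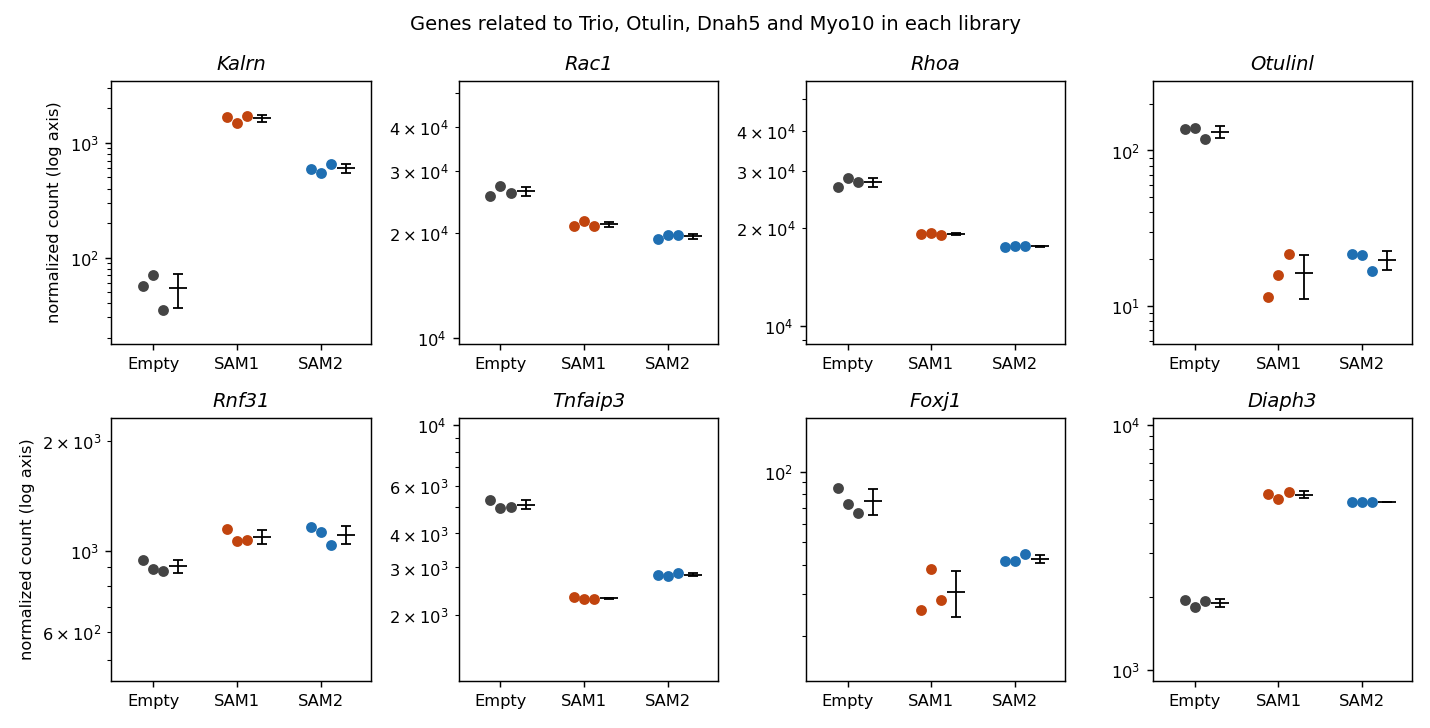
Normalized count (log axis, each panel on its own range) of genes related to Trio (Kalrn, Rac1, Rhoa), Otulin (Otulinl, Rnf31, Tnfaip3), Dnah5 (Foxj1) and Myo10 (Diaph3) in the 9 libraries, with mean and SD. Kalrn is 30.4-fold and 11.2-fold above Empty, whereas Rac1, Rhoa and Rnf31 differ by less than 1.6-fold.

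Some markers of other cell types moved with these groups, and their part in the differences was not tested. The 4 endothelial markers summed to 301 to 357 normalized counts in Empty, 4613 to 4988 in SAM1 and 638 to 689 in SAM2. Kdr made up most of it, with means of 211, 4693 and 536, while Pecam1 had means of 12.9, 29.5 and 11.99. The endothelial markers did not move together, as Cdh5 had means of 77.6, 64.7 and 51.2 and Tek of 35.6, 29.0 and 67.1. The neural list (3 of 5 listed, Sox2 and Sox10 not) summed to 3130 to 3366, 9351 to 9494 and 8769 to 8991, most of it Nes with means of 1960, 8134 and 7735, while Map2 of the same list fell (-1.06 and -0.82, limma adjusted p = 1.55e-07 and 2.27e-06). The muscle list (1 of 3 listed, Myod1 and Myog not) lay at 44.4 to 83, 90.8 to 111 and 223 to 245. The immune list (3 of 5, namely Cd68, Csf1r and Lyz2) lay at 607 to 728 in Empty, 944 to 977 in SAM1 and 695 to 739 in SAM2. The epithelial list (2 of 6, Cdh1 and Krt8) lay at 42.1 to 50.1, 110 to 113 and 42.7 to 52.4. The SAM1 sums were thus above those of the other groups for both lists, but the immune markers did not move together. In Empty, SAM1 and SAM2, Cd68 had means of 375, 527 and 564, Csf1r 225, 252 and 111, and Lyz2 78.2, 181 and 45.3. The summed fibroblast markers were at 1037000 to 1132000 in Empty, 863000 to 924700 in SAM1 and 1163000 to 1202000 in SAM2. Fn1, Col1a1 and Col1a2, with Empty means of 395009, 221562 and 237588, made up most of the sum. Of the 10 markers, 7 were lower and 2 higher in SAM1, and 5 lower and 3 higher in SAM2. Pdgfra fell (-0.60 and -0.81), for example, while Pdgfrb rose (0.94 and 0.54).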

How the data were processed

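PolyA+ RNA was sequenced in 9 libraries (3 groups of 3). Per the labels and methods, the authors checked reads with FastQC 0.11.0, aligned them to GRCm39 with TopHat2 using Bowtie2 and SAMtools, counted genes with HTSeq and normalized with DESeq2. The deposited values are a signal of normalized counts: gene counts divided by a size factor, kept where above 10 in at least 30% of libraries. The steps of the low values gave whole reads (within 0.1) for 100% of values in all libraries, with 41759636 to 49026626 reads each.

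Members and lists were chosen with earlier results of these data known. Log2(value + 1) was fitted for all 15184 genes and 9 libraries in limma 3.58.1 (R 4.3.3), with moderated statistics and Benjamini-Hochberg adjustment over all genes, at a threshold of 0.05 and for 3 comparisons. Standard errors come from that fit. Alternatives were pseudocounts of 0.5 and 5, a stricter filter, quantile normalization, a replicate block, libraries left out, and edgeR 4.0.16 and DESeq2 1.42.0 on recovered reads. In data simulated for SAM1 against Empty over 15184 genes, 87 of 90 genes changed by 1 and 110 of 110 changed by 2 (log2) were recovered. In the same data 17 unchanged genes were called. The simulation changed 200 genes at a single dispersion of 0.02. Its rates need not hold for the real libraries, with their many calls, uneven spread and genes of few reads. Positions came from GENCODE vM39 on GRCm39, in which 14791 names were found once. Named were the 8 genes, the nearest listed coding gene on each side of each, the 5 largest rises and falls per comparison among the 61 neighbours, the partner lists and the 3 nearest profiles. Within groups, libraries differed by more than sampling noise, but unevenly. The chi-square per gene between library pairs was 11 to 13.2 in Empty, 1.45 to 9.34 in SAM1 and 1.53 to 2.29 in SAM2. The fit used a shared estimate of the spread for all groups. Protein sequences were not used here. The counts over the partner list of Trio are not reported here.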

Additional observations from a re-analysis of the deposited data

Results flagged for a closer look

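Among the 8 genes, Cpq was the only one whose SAM1 and SAM2 libraries lay entirely on opposite sides of the same Empty libraries. It was below Empty in every SAM1 library and above it in every SAM2 library, a difference of 0.89 on the log2 scale between the sets, which was not tested.

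For the neighbours, the difference between the SAM sets (SAM2 minus SAM1, log2) was tested with limma across all genes, and those named by the rule and past the adjusted threshold are given here. SAM2 was higher for Ncald by 0.89, Osr2 by 0.87, Vps13b by 0.74, Ankrd33b by 0.63, Marchf6 by 0.58, Sdc2 by 0.54, Retreg1 by 0.54, Cthrc1 by 0.26, Laptm4b by 0.21, Ctnnd2 by 0.18 and Zfp622 by 0.16. SAM2 was lower for Gm20555 (-1.55), Cdh18 (-1.44), Gm49312 (-1.25), Klf10 (-1.21), Rims2 (-1.15), Ank (-0.60), Dap (-0.56) and Cmbl (-0.56). The call was lost when single libraries were left out for Ctnnd2 (SAM1 replicate 2 or 3, SAM2 replicate 2 or 3, 0.14 to 0.18), for Cmbl (SAM1 replicate 1 or 2 or any of SAM2, -0.59 to -0.46), for Gm49312 (SAM1 replicate 1 or 2 or SAM2 replicate 1, -1.18 to -0.68) and for Rims2 (SAM1 replicate 1 or 3 or any of SAM2, -1.17 to -1.03). Gm20555, with means of 4.21 normalized counts in SAM1 and 0.927 in SAM2, lost it under quantile normalization (-0.54, adjusted p = 0.308) and with DESeq2 (-2.15, 0.0539). Quantile normalization also ended the call for Ctnnd2 (0.15, adjusted p = 0.051), Cmbl (-0.23, 0.398), Gm49312 (-0.81, 0.111) and Rims2 (-0.74, 0.102), and a pseudocount of 0.5 that for Cmbl (-0.56, 0.0543).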

How the results depend on the processing

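Of the alternative values of the 8 genes, 362 moved by less than the spread between replicates. Part of these were fixed in advance. A stricter filter, a replicate block or leaving out a library of the group not compared does not change a difference of group means. Another 17 moved by more in the same direction. The 2 that reversed did so under quantile normalization: Basp1 in SAM1 against Empty (0.10) and Mtdh in SAM1 against Empty (0.13). Under that normalization Trio was at -3.70 and -3.40, Otulin at -4.18 and -3.82, Dnah5 at -6.32 in SAM1 and Fbxl7 at 2.31 and 2.52. A filter on values above 10 in every library left 13171 genes and dropped Dnah5. Restricting the neighbours to the 32 that start at 25 to 35 Mb left 24 calls in SAM1 against Empty, 25 in SAM2 against Empty and 18 in SAM2 against SAM1, and turned the balance against Empty from 27 higher and 19 lower to 8 and 16 in SAM1 and from 31 and 17 to 10 and 15 in SAM2. For the named neighbours, 1091 alternative values kept direction and side of the threshold, 26 lost and 14 gained the call. Leaving out each library gave 41 to 47, 46 to 49 and 34 to 39 neighbours called. The depth of 9 to 34 reads per SAM library limits Dnah5.

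After the group means were subtracted, same-numbered libraries of different groups correlated weakly, at 0.00237 to 0.117 (mean 0.0531). Libraries with different numbers correlated at -0.122 to 0.046 (mean -0.0265). Whether the replicate numbers pair the libraries is thus not settled, and the main fit did not pair them. With a replicate block, 11631, 11095 and 9812 genes and 48, 50 and 42 neighbours were called, and 38 for the pooled SAM libraries. Without it, 11275, 10699 and 9162 genes were called.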
